A study of Homo sapiens with 4 samples.

Results

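The polyamine genes were 10 genes taken by symbol from the 26364 genes listed in each RNA-seq sample, and all 10 were found. They were ODC1, AMD1, SRM and SMS, which build polyamines, OAZ1, OAZ2 and AZIN1, which set the activity of ornithine decarboxylase, and SAT1, SMOX and PAOX, which acetylate and oxidize polyamines. RNA came from BE(2)C cells, a human neuroblastoma line with amplified MYCN, in 2 groups of 2 samples. The control cells (Ctrl, labelled wild type) received a non-targeting siRNA, and the MYCN knockdown cells (MYCN KD, labelled MYCN kd) received siRNA against MYCN. Both were transfected with Lipofectamine 2000 for 6 h and collected on the following day. The sample labels give 80 nM siRNA, whereas the study's methods give a lower final concentration. The methods name 1 siRNA product against MYCN, and the knockdown was transient, in a single cell line. The study's methods call the replicates biological, but neither they nor the labels say whether these were separate cultures, so that p-values measure only the spread between these samples, which may be technical.

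Polyamines (putrescine, spermidine and spermine) are small positively charged molecules that bind nucleic acids and are needed for cell growth and translation. ODC1 makes putrescine from ornithine, and AMD1 decarboxylates S-adenosylmethionine, which then donates the group that SRM adds to putrescine to form spermidine and that SMS adds to spermidine to form spermine. The antizymes OAZ1 and OAZ2 bind ornithine decarboxylase and send it to the proteasome, and AZIN1, a relative of the enzyme without its activity, binds antizyme instead. ODC1 is a classical target of the MYC family, which binds the E-box CACGTG, and polyamine synthesis has been studied as a drug target in neuroblastoma with amplified MYCN.

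E-boxes near the transcript starts of ODC1 and SRM are shown because these were the members with the lowest ratios of MYCN KD to Ctrl. On GRCh37, ODC1 spans 10580094 to 10588453 of chromosome 2 (minus strand), the chromosome that also carries MYCN. SRM spans 11114641 to 11120077 of chromosome 1, also on the minus strand. The sequences are those of the reference genome read 5′ to 3′ on the strand of the gene, with each CACGTG in capitals. The ODC1 stretch is in intron 1 (chr2:10588097-10588196), from base 258 to base 357 counted from the transcript start. The SRM stretches are upstream of the start (chr1:11120201-11120300) and in intron 1 (chr1:11119514-11119633).
ODC1 intron 1: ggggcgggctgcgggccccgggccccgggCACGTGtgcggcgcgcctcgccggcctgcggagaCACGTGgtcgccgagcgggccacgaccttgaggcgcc
SRM upstream: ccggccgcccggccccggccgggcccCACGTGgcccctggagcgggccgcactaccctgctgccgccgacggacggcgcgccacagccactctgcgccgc
SRM intron 1: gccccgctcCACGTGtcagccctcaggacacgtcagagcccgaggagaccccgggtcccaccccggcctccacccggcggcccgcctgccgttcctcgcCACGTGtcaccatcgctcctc

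CACGTG reads the same on both strands, so that 1 search covers both. Within 1000 bases on each side of the start of the canonical transcript, ODC1 and SRM each held 3 such hexamers, AZIN1 held 2 and PAOX held 1. The other 6 members held none in this window, which says only that these letters are not there. Of 20550 listed genes with an annotated start, 28.7% held at least 1 hexamer in a window of this length. Of the 10313 tested genes among them, 33.2% did. How many genes held 3 was not examined. In the narrower window, from 250 bases before to 50 bases after the start, SRM was the member with a match, at position -199. In that window 8.5% of all genes and 10.8% of the tested genes had a match. Of the tested genes with a hexamer in the wide window, 32.7% were lower and 19.1% were higher in MYCN KD, against 17.9% and 28.4% of those without one. These shares were not matched on base composition, and a match does not show that a factor was bound.

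**Figure D1:**
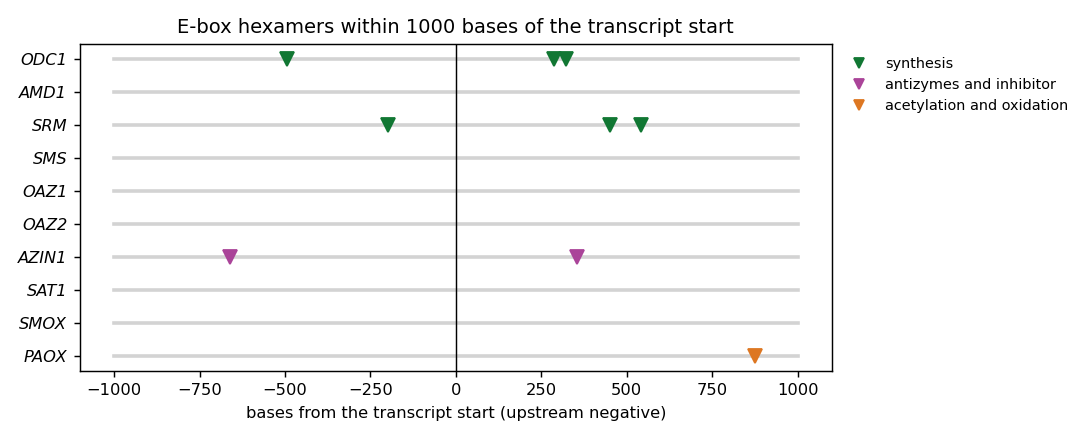
Positions of E-box hexamers (triangles) by distance in bases from the start of the canonical transcript of each polyamine gene, with negative values upstream and colors for the roles of the genes. ODC1 and SRM each have 3, AZIN1 has 2, PAOX has 1 and the other 6 genes have none.

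The values are RPKM, read counts scaled by gene length and by the total of the sample, which the authors calculated after removing unwanted variation. The total of reads behind each sample, recovered from the steps between RPKM values, was between 29055819 and 34142988. By the study's methods the RPKM came from normalized counts, so reads here and below mean such counts, not reads as sequenced. MYCN, the targeted gene, had 1067.9 and 1073.0 RPKM in Ctrl against 720.2 and 718.0 RPKM in MYCN KD, which is 67.2% of Ctrl. All 12 noradrenergic neuroblastoma markers examined (among them HAND2 and DBH) were present, with RPKM from 23.8 to 2273, and they summed to 4100 and 3794 RPKM in Ctrl against 5296 and 5716 RPKM in MYCN KD. Of 14 markers of blood, epithelium, endothelium, fibroblasts and liver, 3 had a mean RPKM of at least 1, all of them fibroblast genes (COL1A1, DCN and LUM). The 4 fibroblast markers summed to 12.5 and 14.9 RPKM in Ctrl and to 19.6 and 16.6 RPKM in MYCN KD, KRT5 was at 0 in all samples, and the part of such genes in the results below was not tested. Same-numbered samples deviated from their group means in opposite directions (Pearson r = -0.98 across 11411 genes), so that the 2 groups do not give separate estimates of replicate error. The tests below take the 4 samples as independent, with 2 residual degrees of freedom per gene. These deviations do not meet that assumption, on which all standard errors and p-values below rest.

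Of the 4 genes that make polyamines, ODC1, SRM and AMD1 fell, and of the genes that regulate or break them down, AZIN1, OAZ2, SAT1 and PAOX rose. Tests used log2(RPKM + 1) in limma, with a Benjamini-Hochberg adjusted p under 0.05 as the threshold. They covered the 11411 genes whose mean RPKM reached 1. Of the 10 members, 9 passed this filter, and SMOX did not. Of these 9, 7 passed the threshold, 3 lower and 4 higher, where 48.1% of all tested genes passed it (22.8% lower and 25.3% higher). PAOX is among the 4 higher members, although it reached the filter only through the group in which it was high. With the filter set at 5 RPKM, 3 members were higher. After scaling all samples to 1 common sum of RPKM, 2 members were lower, as AMD1 was then not past the threshold. With any 1 sample left out, OAZ2 and SAT1 were not past the threshold, though their signs held. Limma then set each variance by expression level alone, so that these fits do not measure the spread of either gene. The median log2 fold change was -0.081 over the 9 members and 0.026 over all tested genes, as members moved in both directions. The samples of the 2 groups did not overlap for 8 of the 9 members (4 higher and 4 lower), as for 76.2% of all tested genes (40.4% higher and 35.8% lower). With so many genes changed in these cells, passing the threshold does not set a member apart. The position of ODC1 and SRM among all genes is given below with their values.

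In Ctrl, OAZ1 had the highest level of the 10 genes (775.1 RPKM on average), followed by ODC1 (283.9), SRM (219.1), OAZ2 (69.9), SMS (60.0), AZIN1 (51.0), AMD1 (22.6), SAT1 (7.07), PAOX (0.534) and SMOX (0.449). In MYCN KD the order was the same except that AZIN1 (77.7 RPKM) was above SMS (48.4 RPKM). The values of PAOX and SMOX in Ctrl and those of OAZ2 and AZIN1 in MYCN KD overlapped, while the samples of other neighbors in each order did not overlap. ODC1 and SRM stayed the most abundant synthesis genes in both groups. The summed RPKM of the 4 synthesis genes was 595.1 and 576.1 in Ctrl against 311.8 and 318.2 in MYCN KD. The sum of the 2 antizymes and AZIN1 was 923.4 and 868.7 in Ctrl against 867.4 and 914.2 in MYCN KD, so that these sums overlapped between groups. The acetylation and oxidation genes summed to 8.13 and 7.98 RPKM in Ctrl and to 10.5 and 11.0 RPKM in MYCN KD.

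**Figure D2:**
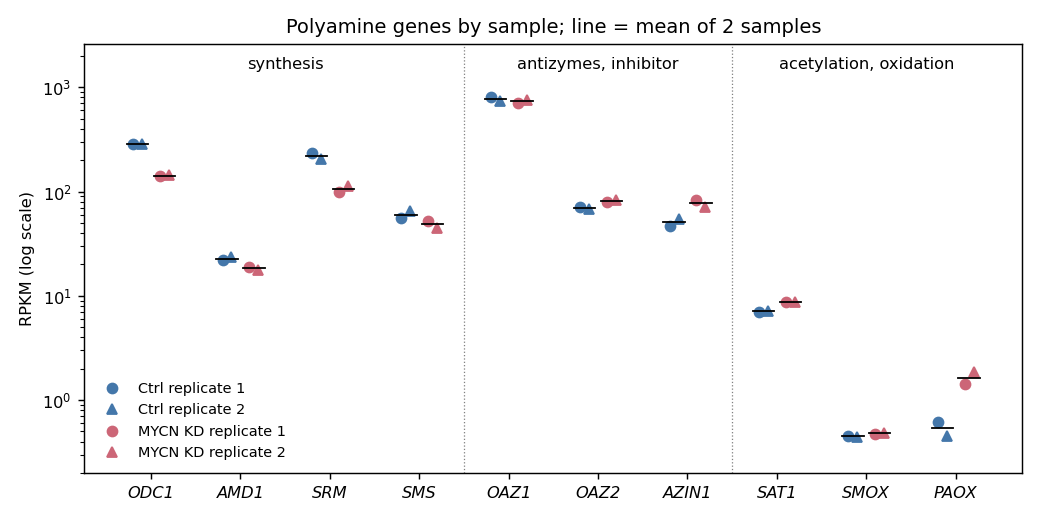
RPKM of the 10 polyamine genes on a logarithmic axis in each of the 4 samples, with circles for replicate 1, triangles for replicate 2 and a line for the mean of each group. The ODC1 and SRM values of MYCN KD lie below those of Ctrl, the OAZ1 values overlap, and the AZIN1 and PAOX values of MYCN KD lie above those of Ctrl.

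ODC1, the ornithine decarboxylase that starts the pathway, had 284.3 and 283.5 RPKM in Ctrl against 142.0 and 142.7 RPKM in MYCN KD. Both MYCN KD samples were thus near the same level, at 50.1% of Ctrl on average, and the groups did not overlap. The log2 fold change was -0.99 (limma, standard error 0.029, adjusted p = 0.00359). This was the 152nd largest fall among the 11411 tested genes, and larger than that of MYCN itself (log2 fold change -0.57). It rested on 25491 and 23805 reads in Ctrl and on 10831 and 11593 reads in MYCN KD. In RNA from whole cultures, fewer cells with a transcript and less of it per cell cannot be told apart, for ODC1 and for all genes below.

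SRM, spermidine synthase, had 233.2 and 205.0 RPKM in Ctrl against 99.2 and 112.7 RPKM in MYCN KD. The lowest Ctrl value was well above the highest MYCN KD value, and the MYCN KD mean was 48.4% of Ctrl. The log2 fold change was -1.04 (limma, standard error 0.10, adjusted p = 0.00732), the 127th largest fall. Its replicates lay farther apart than those of ODC1, with 219.1 ± 20.0 RPKM in Ctrl (SD, n = 2) against 105.9 ± 9.53 RPKM in MYCN KD (SD, n = 2). ODC1 and SRM kept their sign with any 1 sample left out, and the log2 fold change of SRM then lay between -1.13 and -0.95.

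AMD1 and SMS, which supply the aminopropyl group and add it to spermidine, differed by less. AMD1 (chromosome 6 from 111195973 to 111220082) had 21.8 and 23.3 RPKM in Ctrl against 18.9 and 17.8 RPKM in MYCN KD. Its 4 values did not overlap between groups, and it fell to 81.2% of Ctrl (log2 fold change -0.29, standard error 0.058, adjusted p = 0.0294 from limma). The call did not hold without Ctrl replicate 2 (log2 fold change -0.24, adjusted p = 0.132 from limma) or without MYCN KD replicate 2 (-0.24, adjusted p = 0.145). After scaling all samples to 1 common sum of RPKM it was -0.23 (adjusted p = 0.0768 from limma).

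SMS, spermine synthase (chromosome X from 21958827 to 22012955), had 55.7 and 64.4 RPKM in Ctrl against 51.7 and 45.1 RPKM in MYCN KD. The highest MYCN KD value was below the lowest Ctrl value, as in 35.8% of all tested genes, but the spread within groups was wide. The log2 fold change was -0.30 (standard error 0.11, 95% interval from -0.63 to 0.02, adjusted p = 0.101 from limma), and it did not pass the threshold. It passed without Ctrl replicate 1 (-0.41, adjusted p = 0.00282 from limma) and without MYCN KD replicate 1 (-0.40, adjusted p = 0.00439). In fits with 3 samples the lone sample of a group is assumed to vary like the others. Limma then set each variance by expression level alone, so that such p-values do not measure the spread of SMS or of any other gene.

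The 2 synthases can be compared within each sample. The RPKM ratio of SRM to SMS was 4.19 and 3.18 in Ctrl against 1.92 and 2.50 in MYCN KD. On the log2(RPKM + 1) scale the Ctrl ratio was 1.85 ± 0.28 (SD, n = 2) and the MYCN KD ratio 1.11 ± 0.27 (SD, n = 2), a difference of -0.74. All MYCN KD ratios were below all Ctrl ratios. An exact permutation test (two-sided) gave p = 0.3333, which is the smallest p that 2 samples against 2 allow, and the same held for each of the 4 ratios computed (Benjamini-Hochberg adjusted p = 0.3333 for each, exact permutation test).

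**Figure D3:**
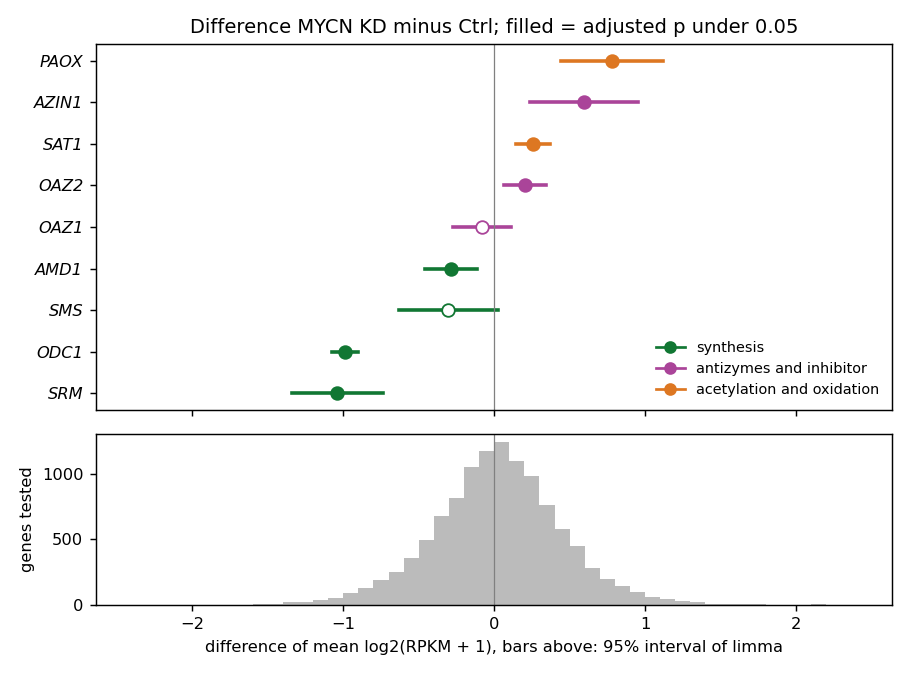
Differences between MYCN KD and Ctrl on the log2(RPKM + 1) scale for the 9 tested polyamine genes (upper panel, points with 95% intervals from limma, filled where the adjusted p was under 0.05), above a histogram of the same difference over the 11411 tested genes (lower panel). SRM and ODC1 lie in the left tail of the histogram, at -1.04 and -0.99, and PAOX and AZIN1 lie to the right, at 0.78 and 0.60.

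Among the genes that set ornithine decarboxylase activity, AZIN1 rose most and OAZ1 did not pass the threshold. OAZ1, the most abundant antizyme (chromosome 19 from 2269508 to 2273489), had 804.8 and 745.5 RPKM in Ctrl against 705.1 and 759.9 RPKM in MYCN KD. The groups overlapped, with a log2 fold change of -0.081 (95% interval from -0.27 to 0.11, adjusted p = 0.357 from limma), and its sign turned under quantile normalization (0.091, adjusted p = 0.132 from limma). An exon of JSRP1 overlaps OAZ1 on the opposite strand, and JSRP1 was at 0.120 RPKM or less in each sample. Antizyme protein needs a shift of reading frame that polyamines promote, so that transcript levels do not give its amount.

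OAZ2, the antizyme paralog (chromosome 15 from 64979772 to 64995480), had 71.6 and 68.2 RPKM in Ctrl against 78.7 and 82.5 RPKM in MYCN KD. Its groups did not overlap, and it rose to 115.3% of Ctrl (log2 fold change 0.20, standard error 0.048, adjusted p = 0.0397 from limma). This call was close to the threshold. With all genes above 0 tested, the adjusted p was 0.0558 from limma, and without Ctrl replicate 1, Ctrl replicate 2, MYCN KD replicate 1 or MYCN KD replicate 2 the log2 fold change was 0.24, 0.17, 0.24 and 0.17, with adjusted p from 0.0900 to 0.267 from limma. The RPKM ratio of OAZ2 to OAZ1 was 0.0890 and 0.0915 in Ctrl against 0.112 and 0.109 in MYCN KD.

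AZIN1, the antizyme inhibitor (chromosome 8 from 103838339 to 103906092), had 47.0 and 55.0 RPKM in Ctrl against 83.6 and 71.8 RPKM in MYCN KD. The lowest MYCN KD value was above the highest Ctrl value, and the mean rose to 152.3% of Ctrl. The log2 fold change was 0.60 (limma, standard error 0.12, adjusted p = 0.0290), and AZIN1 kept its sign with any 1 sample left out (from 0.49 to 0.71). It was the 938th largest rise among the tested genes. AZIN1 thus rose while ODC1, its relative, fell: there were 6.05 and 5.16 RPKM of ODC1 per RPKM of AZIN1 in Ctrl and 1.70 and 1.99 in MYCN KD. The RPKM ratio of ODC1 to OAZ1 was 0.353 and 0.380 in Ctrl against 0.201 and 0.188 in MYCN KD.

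The acetylation and oxidation genes were expressed at low levels, and their precision was limited by counting. SAT1 (chromosome X from 23801290 to 23804327) is the rate-limiting acetyltransferase of polyamine breakdown. It had 7.06 and 7.09 RPKM in Ctrl against 8.64 and 8.63 RPKM in MYCN KD. The replicates were nearly equal and the groups did not overlap, and SAT1 rose to 122.1% of Ctrl (log2 fold change 0.26, standard error 0.038, adjusted p = 0.0152 from limma). These values rest on 286 and 269 reads in Ctrl and on 298 and 317 reads in MYCN KD. The log2 ratio of the pooled reads per total was 0.29 with a counting error of 0.084, more than the standard error of limma (0.038). The RPKM were computed after RUVSeq, and its part in the small spread between replicates, and so in the standard errors and p-values of all genes, was not tested. Taking the normalized counts as reads, the interval from counting alone was 0.12 to 0.45 (95%). Without Ctrl replicate 1, Ctrl replicate 2, MYCN KD replicate 1 or MYCN KD replicate 2 the log2 fold change was from 0.25 to 0.26 and the adjusted p from 0.143 to 0.172 from limma.

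PAOX, the oxidase of acetylated polyamines (chromosome 10 from 135192765 to 135205198), had 0.617 and 0.450 RPKM in Ctrl against 1.42 and 1.86 RPKM in MYCN KD. Both MYCN KD values were above both Ctrl values, with 80 and 112 reads against 41 and 28. The mean RPKM was 3.07-fold higher in MYCN KD, and the log2 fold change on the log2(RPKM + 1) scale, which understates changes of low values, was 0.78 (standard error 0.12, adjusted p = 0.0151 from limma). Its sign held with any 1 sample left out (from 0.66 to 0.90). Those fits kept the filter of all 4 samples and set each variance by expression level alone. They therefore do not measure the spread of PAOX or test whether it would reach the filter. PAOX reached the filter only through its MYCN KD values (mean 1.64 RPKM, against 0.534 RPKM in Ctrl), and a gene that passes in this way has to differ.

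SMOX, the oxidase of spermine (chromosome 20 from 4101627 to 4168394), was below the filter, with 0.454 and 0.444 RPKM in Ctrl against 0.474 and 0.487 RPKM in MYCN KD. Its values came from 36 and 33 reads in Ctrl and from 32 and 35 reads in MYCN KD. The MYCN KD values were the higher ones by RPKM, but each lay within the exact 95% Poisson interval of every other sample. These intervals take the normalized counts as reads, and a difference was not detectable at this depth. Without the filter the log2 fold change was 0.03 (adjusted p = 0.313 from limma).

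**Figure D4:**
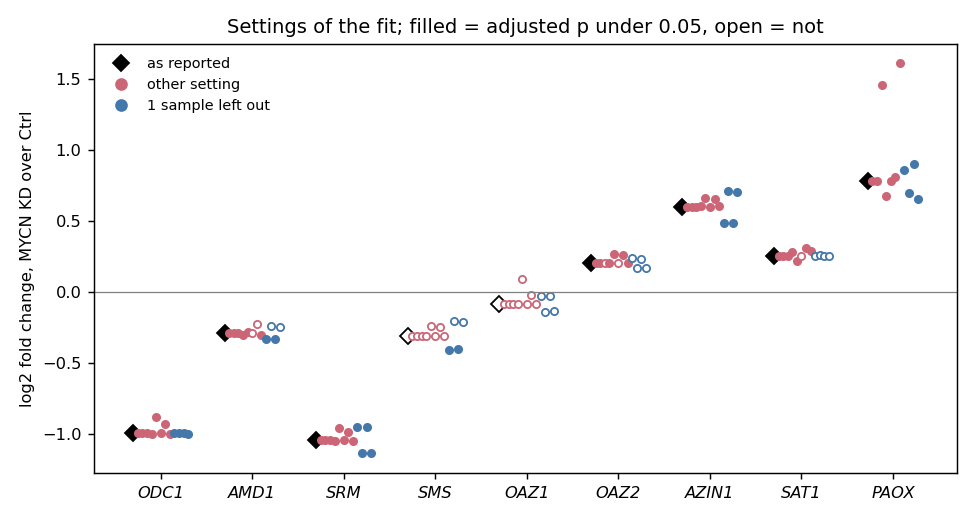
Log2 fold changes of the 9 tested polyamine genes as reported (black diamonds), under other settings of pseudocount, filter, scaling, variance, replicate block and unit (red circles, without the crossed block) and with 1 sample left out (blue circles), filled where the adjusted p was under 0.05. ODC1, SRM, AZIN1 and PAOX are filled in every fit shown, OAZ1 in none, and the other genes in some. In fits with 1 sample left out, the filter was that of all 4 samples and each variance was set by expression level alone.

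A wider list of 41 genes of arginine supply, methionine salvage, hypusination, transport, terminal oxidation and paralogs was examined beside the members. Of these, 28 passed the filter, of which 12 were lower, 5 were higher and 11 did not pass the threshold. Their median log2 fold change was -0.20. The remaining 13, with a mean RPKM under 1, included ARG1, AGMAT, SLC7A3, MAT1A, ATP13A4, SLC22A2, SLC22A3, SLC22A16, CAV1, AOC1, AZIN2 and SATL1. The 12 lower genes are 42.9% of the 28, where 22.8% of all tested genes were lower. The 5 higher genes stand beside 25.3% of all tested genes that were higher. As the list was chosen with earlier results of these data known, these shares are not independent support.

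S-adenosylmethionine and methionine salvage held most of the lower genes. This branch makes the methyl and aminopropyl donor and recycles the methylthioadenosine that SRM and SMS release. Of its 9 genes 8 were tested, and 7 of these were lower, where 22.8% of all tested genes were lower. The median log2 fold change was -0.63 over the 8. ADI1, named after its values were seen, was the exception (log2 fold change -0.00421, adjusted p = 0.948 from limma). The branch is part of the list chosen with earlier results known, so its count is not independent support. MTAP, the phosphorylase that cleaves methylthioadenosine, fell from 8.77 and 9.14 RPKM to 4.31 and 4.15 RPKM (log2 fold change -0.93, adjusted p = 0.00361 from limma). ENOPH1, an enzyme of the salvage pathway, fell from 38.7 and 45.7 RPKM to 21.2 and 18.1 RPKM (-1.06, adjusted p = 0.00970 from limma). MAT2B, the regulatory subunit of methionine adenosyltransferase, fell from 20.9 and 22.1 RPKM to 10.2 and 9.73 RPKM (-1.03, adjusted p = 0.00365 from limma). The 3 were named for the size of their falls and for not overlapping between groups.

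Arginine supply and transport moved in both directions. SLC7A2, a transporter of cationic amino acids, rose from 18.0 and 21.2 RPKM to 57.1 and 48.7 RPKM (log2 fold change 1.38, adjusted p = 0.00653 from limma), whereas SLC7A1, its paralog, fell from 60.2 and 58.9 RPKM to 48.6 and 49.7 RPKM (-0.27, adjusted p = 0.0116). In Ctrl SLC7A1 thus had the higher level of the 2, while in MYCN KD their values overlapped. ASL, which makes arginine from argininosuccinate, rose from 39.8 and 37.3 RPKM to 68.7 and 73.0 RPKM (0.86, adjusted p = 0.00440 from limma). Of the transport genes, GPC1, a heparan sulfate proteoglycan linked to polyamine uptake, rose to 196.0% of Ctrl (0.92, adjusted p = 0.0132 from limma). SLC3A2, a heavy chain of amino acid transporters, fell to 54.9% (-0.85, adjusted p = 0.0116), and SLC18B1, a vesicular polyamine transporter, fell to 54.0% (-0.73, adjusted p = 0.0236).

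EIF5A, the translation factor that carries hypusine, the residue made from spermidine, fell from 519.4 and 505.4 RPKM to 343.5 and 353.2 RPKM (log2 fold change -0.56, adjusted p = 0.00430 from limma). EIF5AL1 also fell (-0.36, adjusted p = 0.0336 from limma), but it is a near copy of EIF5A and reads could be split between them, so that its value is uncertain. DHPS and DOHH, the enzymes that make hypusine, did not pass the threshold (log2 fold change 0.07, adjusted p = 0.418, and -0.40, adjusted p = 0.0709, from limma), and both were named after their values were seen. ALDH9A1, an aldehyde dehydrogenase of aminobutyraldehyde from putrescine, rose to 118.0% of Ctrl (0.23, adjusted p = 0.0241 from limma), and OAZ3, an antizyme paralog, rose from 2.12 and 1.97 RPKM to 2.67 and 2.90 RPKM (0.31, adjusted p = 0.0223). Exons of EIF5A, DHPS and OAZ3 overlap genes on the opposite strand (GPS2 for EIF5A, WDR83 for DHPS, MRPL9 and TDRKH for OAZ3). So do exons of MAT2A (GGCX), APIP (PDHX) and ARG2 (VTI1B), named only for this overlap. MAT2A and APIP are among the lower genes of methionine salvage. Whether the counting used strand is not given in the sources used here.

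**Figure D5:**
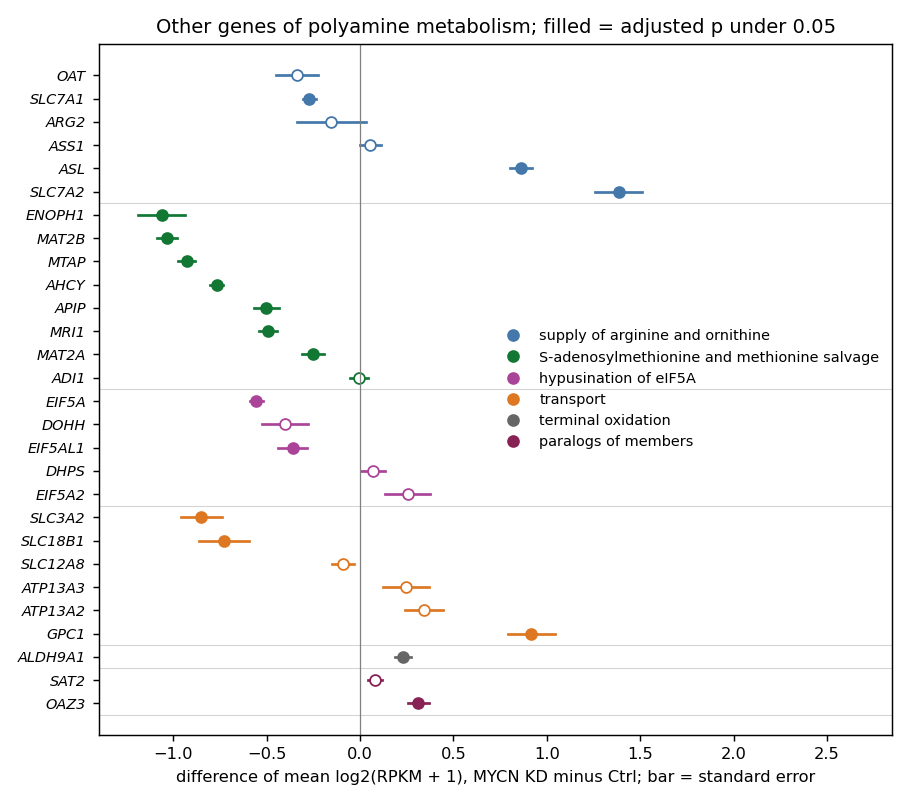
Differences between MYCN KD and Ctrl on the log2(RPKM + 1) scale for the 28 tested genes of the wider list, colored by role, with bars for the standard error and filled points where the adjusted p was under 0.05. Of the 8 genes of S-adenosylmethionine and methionine salvage, 7 are filled and left of 0, where 22.8% of all tested genes were lower. The supply and transport genes lie on both sides, from -0.85 for SLC3A2 to 1.38 for SLC7A2.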

How the data were processed

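The RNA-seq data comprised 4 BE(2)C samples (Ctrl, n = 2, and MYCN KD, n = 2), grouped by their labels. Reads were aligned by the authors to hg19 using HISAT2 (version 2.1.0 in the submitters' processing notes). The authors then ran featureCounts on RefSeq genes, DESeq2, and RUVSeq against unwanted variation. The deposited RPKM were computed by the authors from the resulting normalized counts. The RUVSeq variant and the strand setting of the counting are not given in the sources used here.

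Limma 3.58.1 (lmFit, then eBayes with a trend, no block; R 4.3.3) was applied to log2(RPKM + 1) of genes whose mean RPKM reached 1, two-sided, with Benjamini-Hochberg adjustment over all genes tested and a threshold of 0.05. Whole reads were recovered from the RPKM steps: the total behind each sample came from small RNA genes of known length, and each gene's length was the smallest at which its reads were whole in all samples (tolerance 0.001 reads plus the rounding of the file). All 19908 genes above 0 gave whole reads, though a factor shared by the reads of all samples cannot be seen this way. By the study's methods these are normalized counts rather than reads as sequenced. Gene positions came from GENCODE release 44 on GRCh37, the assembly also named hg19. Both scripts for limma and for reads were tested on simulated data. For limma the simulated noise was independent between samples, unlike the deviations in these data. That test therefore cannot show that its error rates hold here.

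The members and the wider list were chosen with earlier results of these data known. Named genes were the 10 members, MYCN and, in each role of the wider list, up to 3 genes past the threshold with the largest differences and no overlap between groups. Same-numbered samples did not deviate together (Pearson r = -0.98 across 11411 genes, which are not independent replicates), so the replicate number was not used as a pairing. Alternatives were another pseudocount, other filters, 2 other scalings, no trend, a replicate block, each sample left out and limma-voom on the recovered reads.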

Additional observations from a re-analysis of the deposited data

How the results depend on the processing

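ODC1, SRM and AZIN1 kept their sign and stayed past the threshold under each alternative. So did PAOX in fits of all 4 samples where it was tested, but it reached the filter only through MYCN KD. PAOX gave no value with a mean RPKM of at least 5. Its sign held with 1 sample left out, in fits that kept the filter of all 4 samples. For the calls that changed, the cause was not tested. With the replicate block, which has 1 residual degree of freedom and whose numbers do not pair these samples, AMD1 (-0.29, adjusted p = 0.147), OAZ2 (0.20, adjusted p = 0.263) and SAT1 (0.26, adjusted p = 0.255 from limma) were not past it. That left 2 members higher, against 4, and 3 genes of the wider list higher, against 5, while 3928 of all tested genes passed, against 5489. A crossed replicate block, added after seeing the data, left a median residual SD of 0.00197 and called 5 members lower (with SMS at -0.30 and OAZ1 at -0.081), 11 genes of the wider list higher and, of all tested genes, 5910 higher and 5262 lower. A common sum of RPKM in all samples took AMD1 to -0.23 (adjusted p = 0.0768), no filter left OAZ2 at 0.20 (adjusted p = 0.0558), and quantile normalization turned OAZ1 from -0.081 to 0.091 (adjusted p = 0.132 from limma). With a mean RPKM of at least 5, 1868 genes were higher, fewer than 2890, as fewer genes were tested. With 1 sample left out, AMD1 lay from -0.33 to -0.24 and SMS from -0.41 to -0.20. OAZ2 then lay from 0.17 to 0.24 and SAT1 from 0.25 to 0.26. OAZ2 and SAT1 were not past the threshold in these fits, where each variance was set by expression level alone. The 4 ratios kept their sign in all alternatives. Limma-voom on the recovered reads called 5496 genes. Counting error limits SAT1, SMOX and PAOX.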
